A study of Mus musculus with 2 samples.

Results

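Genes that mark macrophages of the mouse lung were followed in sorted Tregs, namely Spp1, Chil3, Retnla, Arg1, Mrc1, Plet1, Ear2, Gpnmb, Marco and Lyz2. They are 10 of the 24346 gene symbols listed for both libraries, and they were picked in part from their high values in lung, so their levels and ratios are given as a description with no test. The cells came from FDG mice, which carry a Foxp3-DTR-GFP allele so that GFP marks Foxp3-expressing cells. All mice were 10 to 16 weeks old and received 50 μg of bleomycin (BLM), a drug that injures the lung, by the intratracheal route. GFP+CD4+ cells of spleen and lung were collected on day 15, and each tissue gave 1 RNA-seq library made from 3 mice together. Both tissues therefore came from BLM-treated mice, and no naïve group enters the comparison. Values are FPKM, fragments scaled to transcript length and to the mapped fragments of the library, so that levels of different genes can be set side by side. With 1 pooled library per tissue, the variation between mice is unknown, no value has an error across replicates and no p-value is given.

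Alveolar macrophages reside in the air spaces, where they take up surfactant and inhaled particles, and their identity depends on GM-CSF and on the transcription factor Pparg. After lung injury, monocytes enter the tissue and give rise to macrophages with high Spp1 and Gpnmb, which are found near scar-forming fibroblasts. Arg1, Retnla, Chil3 and Mrc1 are the classical genes of alternative activation, the response of mouse macrophages to IL-4 and IL-13.

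The sorted population was first compared with its labels. The T cell genes Cd3e, at 513 and 369 FPKM in spleen and lung, and Cd4, at 195 and 179 FPKM, were high in both libraries. Foxp3 was at 18.7 FPKM in spleen and 41.8 FPKM in lung. Actb, a cytoskeletal gene used as a common reference, was at 1325 and 1242 FPKM. All 10 T cell markers and all 8 Treg markers were at 1 FPKM or more, and their median log2 ratios of lung to spleen were -0.07 and 0.48. After rescaling both libraries to an equal sum (TPM), these medians were -0.50 and 0.05. On that scale 0 of the 10 T cell markers and 4 of the 8 Treg markers were higher in lung. Reads behind each FPKM were estimated from the low values, and they summed to 9863559 in spleen and 12884760 in lung. A transcript with an effective length of 1 kb gained 0.0965 FPKM in spleen and 0.0850 FPKM in lung with each read.

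All 10 genes were detected in both libraries, and all were higher in lung, except that the difference of Mrc1 turned round when the libraries were rescaled to TPM. Ratios of lung to spleen were taken after raising any FPKM under 0.1 to 0.1. The ratio was over 20-fold, the threshold that the study used for genes upregulated in lung Tregs, for 8 of the 10 genes. Of all listed symbols 1.62% were over 20-fold higher in lung, or 3.27% of the 12094 symbols at 1 FPKM or more in either library. Any higher value in lung was found for 51.5% of those 12094 symbols. Because the genes were picked in part from these values, nothing is read from their count against this background. Their median log2 ratio was 6.27, and the median over the 12094 symbols was 0.03. Together they made up 0.0699% of the FPKM sum in spleen and 3.96% in lung, and without Lyz2 the shares were 0.00719% and 0.874%. In a bulk library, more cells of a type and more RNA per cell cannot be told apart. A symbol under 1 FPKM in 1 library entered a count at 1 FPKM or more only through the other library. The direction of such a symbol was therefore fixed by the filter, also in the gene lists below.

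**Figure D1:**
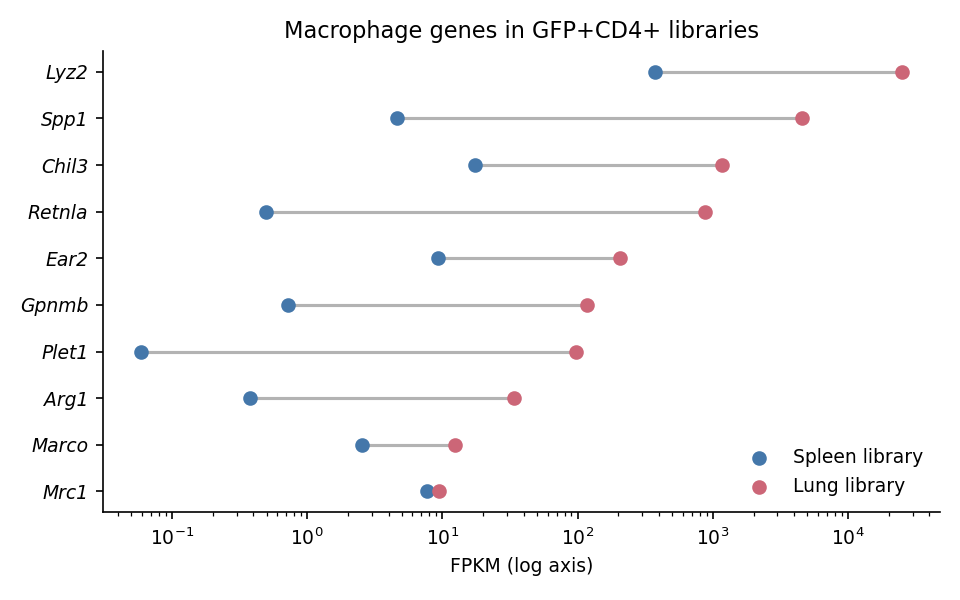
FPKM of each of the 10 genes in the splenic library (blue) and the lung library (red), on a log axis, 1 library per tissue, with genes ordered by the lung value. The points lie far apart for Spp1 (4.62 and 4560 FPKM) and nearly touch for Mrc1 (7.64 and 9.41 FPKM).

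The levels of the 10 genes covered a wide range within each library. In lung the order from high to low was Lyz2, Spp1, Chil3, Retnla, Ear2, Gpnmb, Plet1, Arg1, Marco and Mrc1, and the highest was 2651-fold above the lowest. In spleen the order was Lyz2, Chil3, Ear2, Mrc1, Spp1, Marco, Gpnmb, Retnla, Arg1 and Plet1, with 6388-fold between the ends. Spp1 thus stood below Chil3, Ear2 and Mrc1 in spleen and above them in lung, where Mrc1 was the lowest. In lung 6 of the genes were above 100 FPKM, and in spleen only Lyz2 was.

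The upstream sequences of 3 genes are shown because these genes were, after Lyz2, the highest of the 10 in lung, and because they differ in the short motifs that factors of macrophages are known to bind. They come from the RefSeq promoter table (GRCm38.p6, the build called mm10) and are written 5′ to 3′ on the strand of the gene. Retnla is given at chr16:48842359-48842550 on the plus strand, Spp1 at chr5:104434861-104435110 on the plus strand, and Chil3 at chr3:106167565-106167814 on the minus strand. Capitals mark GGAAGT or its complement ACTTCC (PU.1), TTGCNNAA (C/EBP), the palindromic STAT6 motif with 4 free bases, and TATAAA. The letters TATAAA are those of the core promoter box, and they are marked at any position.
Retnla: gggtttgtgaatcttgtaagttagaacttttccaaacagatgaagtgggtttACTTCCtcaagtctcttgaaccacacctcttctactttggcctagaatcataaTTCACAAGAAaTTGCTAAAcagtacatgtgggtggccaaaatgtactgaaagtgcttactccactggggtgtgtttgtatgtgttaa
Spp1: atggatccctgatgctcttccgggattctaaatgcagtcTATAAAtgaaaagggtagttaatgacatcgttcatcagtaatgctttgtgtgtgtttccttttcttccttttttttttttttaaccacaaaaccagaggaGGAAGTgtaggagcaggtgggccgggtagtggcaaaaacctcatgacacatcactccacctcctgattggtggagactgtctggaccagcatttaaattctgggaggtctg
Chil3: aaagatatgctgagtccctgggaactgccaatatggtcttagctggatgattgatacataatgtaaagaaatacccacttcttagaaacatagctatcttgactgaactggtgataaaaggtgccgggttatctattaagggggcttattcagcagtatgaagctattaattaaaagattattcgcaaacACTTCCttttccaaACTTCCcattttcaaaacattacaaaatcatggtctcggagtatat
The Retnla stretch ends where the first exon of the GENCODE annotation begins, at 48842551. Motif positions are counted from the RefSeq start, which for Retnla lies inside that exon and downstream of the printed stretch.

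Motifs were searched on both strands in the 250 bases before each RefSeq start, for the 9 genes with an entry in the table. The PU.1 letters GGAAGT occurred upstream of Chil3, Lyz2, Mrc1, Retnla and Spp1, and in 19.7% of all 32851 promoters of that length. The longer GAGGAAGT, which contains GGAAGT, occurred upstream of Retnla and Spp1 and in 2.44% of promoters. The Chil3 stretch holds ACTTCC at 2 places, from -60 to -55 and from -46 to -41 relative to the start. The STAT6 motif, printed as TTCACAAGAA in the Retnla stretch, occurred upstream of Retnla alone among the 9 genes, from -145 to -136, and in 5.85% of promoters. Next to them, from -134 to -127, Retnla had TTGCNNAA, which was also found for Ear2, Plet1 and an inner start of Spp1 and in 9.56% of promoters. The AP-1 letters TGANTCA were upstream of Plet1 alone (6.75% of promoters), and TATAAA was upstream of Plet1, Retnla and Spp1 (12.4%). The TATAAA of Spp1 lies from -211 to -206 and that of Plet1 from -30 to -25. That of Retnla, also from -30 to -25, lies past the end of the printed stretch, within the GENCODE first exon. The E-box CANNTG was found for 7 of the genes and in 66.2% of promoters. Its form CATGTG was found for Mrc1 and Retnla (12.3%). CACGTG (6.02%), TTGCNNCA (9.59%) and the PPAR element DR1 (0.0335%) were found for none. A match is a stretch of letters and was not tested for binding, and these windows leave out enhancers. Arg1 has no sequence here.

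Among the secreted proteins, Spp1 encodes osteopontin, a matrix protein and cytokine that binds integrins and CD44. Spp1 was at 4.62 FPKM in spleen and 4560 FPKM in lung, a 988-fold ratio. Its estimated reads were 58.6 and 65771, and the 95% interval of the ratio from counting error alone (exact binomial) ran from 761 to 1290. Spp1 ranked 14th of all symbols in lung and 8466th in spleen. The gene lies at chr5:104435118-104441050 on the plus strand.

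Chil3 encodes Ym1, a secreted chitinase-like lectin that is abundant in alveolar macrophages and is also made by monocytes and neutrophils. It was at 17.4 FPKM in spleen and 1161 FPKM in lung, 66.8-fold higher, with a counting interval of 58.8 to 76.2. Chil3 lies at chr3:106147554-106167564 on the minus strand.

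Retnla encodes RELMα, a secreted cysteine-rich protein that is induced through STAT6. It was at 0.495 FPKM in spleen and 874 FPKM in lung, the highest ratio of the 10 genes at 1767-fold. The splenic value rests on an estimated 2.01 reads, so the counting interval ran from 490 to 14638. With 3 reads credited to the spleen the ratio was 1181-fold. Retnla lies at chr16:48842551-48844461 on the plus strand, in 4 exons.

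Arg1 is the only intracellular enzyme of metabolism in the group, and it splits arginine into ornithine and urea. It was at 0.380 FPKM in spleen and 33.7 FPKM in lung, 88.6-fold higher. The splenic value corresponds to about 5.0 reads and the interval was 37.7 to 274. Arg1 lies at chr10:24915221-24927484 on the minus strand. In lung it was thus far below Retnla and Chil3 in level, although all belong to alternative activation.

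Of the surface proteins, Gpnmb is a glycoprotein of macrophages and osteoclasts that is induced under lysosomal stress. It was at 0.725 FPKM in spleen and 117 FPKM in lung, 161-fold higher, with an interval of 111 to 249. Gpnmb lies at chr6:49036546-49070929 on the plus strand. Plet1, a lipid-anchored surface protein, was at 0.0589 FPKM in spleen and 97.2 FPKM in lung. The splenic value is that of about 1 read (0.904 estimated), and the ratio was 972-fold with the floor, 497-fold with 3 reads credited to the spleen, and 267 to 58966 by its counting interval. Plet1 (chr9:50494525-50505482, plus strand) was therefore close to undetected in spleen.

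The remaining pair of surface proteins showed the smallest ratios of the 10 genes. Marco, a scavenger receptor of alveolar macrophages that binds bacteria and particles, was at 2.55 FPKM in spleen and 12.4 FPKM in lung, 4.87-fold higher, with an interval of 3.57 to 6.91. Mrc1, the mannose receptor CD206, was at 7.64 FPKM in spleen and 9.41 FPKM in lung, 1.23-fold higher with an interval of 1.08 to 1.40. After rescaling to TPM the log2 ratio of Mrc1 was -0.13 instead of 0.30, so its direction depended on the scaling. Marco lies at chr1:120474538-120505024 on the minus strand and Mrc1 at chr2:14229392-14332057 on the plus strand, where it spans 30 exons.

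Lyz2 and Ear2 encode antimicrobial proteins, lysozyme M of myeloid cells and a ribonuclease of the eosinophil-associated family that alveolar macrophages also express. Lyz2 was at 376 FPKM in spleen and 24947 FPKM in lung, 66.3-fold higher, with an interval of 64.4 to 68.4. It was the highest of all symbols in lung, above the next at 18345 FPKM, and made up 3.08% of the lung FPKM sum and 0.0627% of the splenic one. In lung it exceeded Cd3e and Actb, while in spleen it was below both. Ear2 was at 9.24 FPKM in spleen and 205 FPKM in lung, 22.2-fold higher. Its counting interval of 16.6 to 30.1 includes the 20-fold threshold, and the ratio was under 20-fold after rescaling to TPM or to equal upper quartiles. Lyz2 lies at chr10:117277331-117282321 on the minus strand and Ear2 at chr14:44102654-44103534 on the plus strand.

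**Figure D2:**
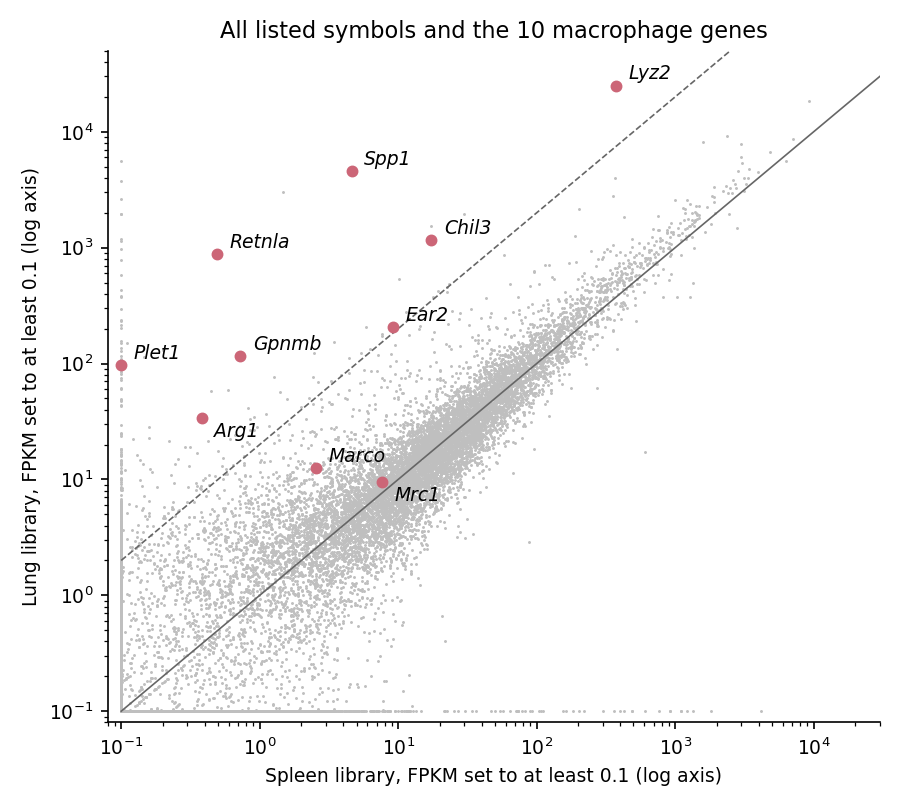
All 24346 listed symbols (grey) and the 10 genes (red) by FPKM in spleen (x) and lung (y), both set to at least 0.1 and on log axes, with equality as a solid line and the 20-fold ratio as a dashed line. The dashed line is passed by 8 genes, Ear2 just above it, and Marco and Mrc1 lie between the lines.

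The 10 genes did not share 1 ratio in these 2 libraries. The intervals compared here cover counting error alone and not the variation between mice. Their log2 ratios spanned 10.49 units from Mrc1 to Retnla, and the counting intervals of Mrc1, Marco, Ear2, Lyz2, Gpnmb and Spp1 did not overlap one another. Those of Chil3 and Lyz2 overlapped, as did those of Retnla, Spp1 and Plet1, so the order within these sets is not resolved by the reads. The interval of Arg1 overlapped those of Chil3, Lyz2, Gpnmb and Plet1. Expressed as a share of Lyz2, Chil3 was at 4.62% in spleen and 4.66% in lung. Arg1 was at 0.101% and 0.135% of Lyz2. Spp1 was at 1.23% of Lyz2 in spleen and 18.3% in lung, and Retnla at 0.132% and 3.51%. Plet1, at 0.0157% and 0.390%, and Gpnmb, at 0.193% and 0.468%, were also a larger share in lung. The share was smaller in lung for Ear2 (2.46% and 0.821%), Marco (0.678% and 0.0498%) and Mrc1 (2.03% and 0.0377%).

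General macrophage genes were measured in the same libraries. Of 12 pan-macrophage markers, all were above 0 in both libraries and 11 were higher in lung (10 after rescaling to TPM), with Lyz2 counted among them. The sum of the 11 markers other than Lyz2 came to 803 and 5516 FPKM in spleen and lung, and their median log2 ratio was 2.25. Ctss, a lysosomal protease, was the highest of these in lung, at 357 and 2779 FPKM. Cd14, the lipopolysaccharide co-receptor, had the highest ratio, with 11.4 FPKM in spleen and 277 FPKM in lung. Aif1, a calcium-binding protein, was the exception, with 22.7 FPKM in spleen and 9.43 FPKM in lung. The log2 ratio of 9 members lay above that median, by 8.54 for Retnla, 7.70 for Spp1, 7.67 for Plet1 and 5.08 for Gpnmb. The difference was 3.80 for Lyz2, 2.22 for Ear2 and 0.034 for Marco. Mrc1 lay 1.95 units below it, with a difference of -1.95. Since the members were picked in part from their high lung values, nothing is read from their count above this median. How far the macrophage markers account for the levels of the 10 genes was not tested.

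**Figure D3:**
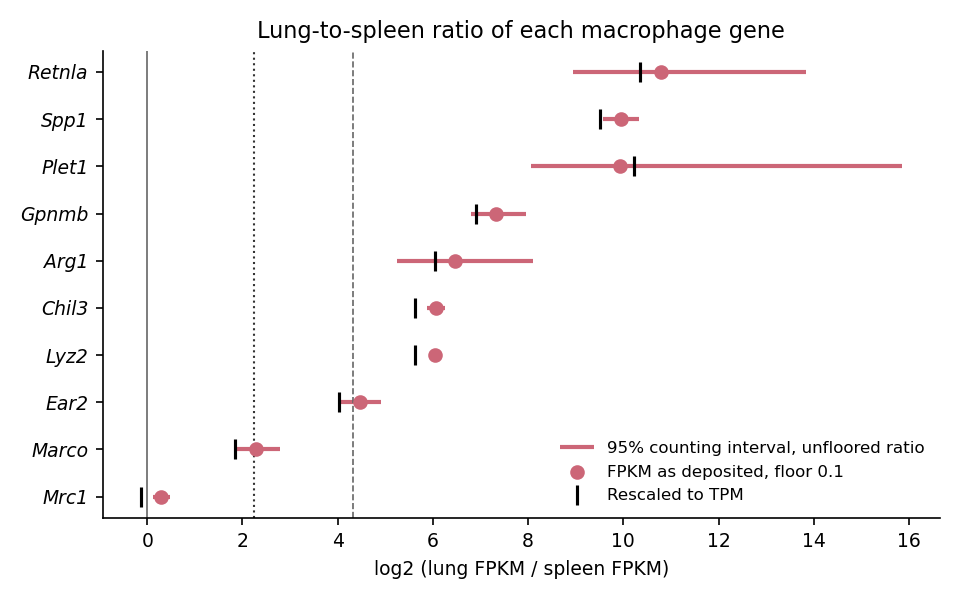
Log2 ratio of lung to spleen for each gene (red points), its 95% interval from counting error (red bars) and the ratio after rescaling to TPM (black ticks), with lines at equality (solid), at the pan-macrophage median of 2.25 (dotted) and at 20-fold (dashed). The intervals are widest for Plet1 and Retnla, whose splenic values rest on about 1 and 2 reads.

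Other genes of alveolar macrophage identity were also higher in lung. Of 18 such genes other than the members at 1 FPKM or more in either library, 18 were higher in lung (17 after rescaling to TPM, where Mcoln3 turned round) and 11 were over 20-fold higher, with a median log2 ratio of 5.16. Car4, a carbonic anhydrase of alveolar macrophages, had the highest ratio and was listed at 0 in spleen and at 81.3 FPKM in lung. Cd9, a tetraspanin also found on other leukocytes, was the highest in lung, with 96.3 and 634 FPKM. Mcoln3, a lysosomal channel, had the lowest ratio, with 3.66 and 3.73 FPKM in spleen and lung. The median of this list lay above the ratios of Ear2, Marco and Mrc1, which belong to the same list.

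Genes of profibrotic, lipid-associated macrophages showed the same direction. All 24 non-member genes of this list at 1 FPKM or more were higher in lung, also after rescaling to TPM. Of them 8 were over 20-fold higher, and the median log2 ratio was 3.52. Trem2, Ctsk, Mmp12, Syngr1, Fn1, Chil1, Pdgfb and Anpep were under 1 FPKM in spleen. They entered only through their lung values, which fixed their direction. Among genes at 1 FPKM or more in spleen, only Cd63, Lgals3 and Ctsl were over 20-fold higher. Trem2, a lipid-sensing receptor, had the highest ratio, with 0.109 FPKM in spleen, the value of about 1 read, and 151 FPKM in lung. Ctsd, a lysosomal protease, was the highest in lung, at 369 and 4009 FPKM. Timp2, an inhibitor of matrix proteases, had the lowest ratio, at 36.1 and 72.5 FPKM. Spp1 stood above Ctsd in lung although it was below both Ctsd and Timp2 in spleen.

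Interstitial macrophage genes were more mixed. Of 20 genes, 17 were higher in lung (16 after rescaling to TPM), 4 of them over 20-fold, and 3 were lower, with a median log2 ratio of 1.72. C1qb, a complement subunit, was the highest in lung at 129 and 560 FPKM, and Mgl2, a C-type lectin, had the highest ratio at 0.144 and 13.5 FPKM. Timd4, a receptor for phosphatidylserine of resident macrophages, was at 3.09 FPKM in spleen and was listed at 0 in lung. Mgl2, Folr2, Lyve1 and Stab1 entered only through their lung values, and Timd4 and Cd163 only through their splenic values.

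In the alternative activation list, 16 non-member genes were at 1 FPKM or more, 12 of them higher (11 after rescaling to TPM) and 4 lower in lung, with a median log2 ratio of 2.09. Of these 5 were over 20-fold higher. Mgl2, Ccl17, Ccl22, Ccl24 and Alox15 entered only through their lung values. Mgl2 had the highest ratio here too, and Clec7a, the β-glucan receptor, was the highest in lung, at 3.44 and 152 FPKM. Fcer2a, the low-affinity IgE receptor that B cells also express, was at 17.2 and 3.97 FPKM. Retnla had the highest ratio of the whole list, members included, and Mrc1 lay below its median.

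Arg1 was set beside the other genes of arginine metabolism. Of 12 such genes, 8 were higher and 4 lower in lung, with a median log2 ratio of 0.12. After rescaling to TPM, which shifts each ratio above the floor by -0.43 (log2), 4 were higher and the median was -0.32. Arg2, the mitochondrial arginase, had the highest ratio of them, with 0.479 FPKM in spleen and 10.6 FPKM in lung. Odc1, which turns ornithine into putrescine, was at 74.8 and 291 FPKM. Gatm, which uses arginine to make a creatine precursor, was at 3.50 and 0.198 FPKM. Arg1 was thus 88.6-fold higher in a list whose median was near equality.

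Marco and Mrc1 belong to the scavenger receptors and C-type lectins, and of the other 16 genes of this list 13 were higher in lung, also after rescaling to TPM, and 6 over 20-fold higher, with a median log2 ratio of 3.20. Olr1, the receptor for oxidised LDL, had the highest ratio, at 0.0705 FPKM in spleen, less than 1 estimated read, and 18.3 FPKM in lung. Cd68, a lysosomal glycoprotein, was the highest in lung, at 43.0 and 368 FPKM. Cd163, the haemoglobin scavenger receptor, had the lowest ratio, at 1.92 and 0.0404 FPKM. Both members lay below the median of their list. Msr1, Stab1, Clec4d and Olr1 entered only through their lung values, and Cd163 only through its splenic value.

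Receptors for osteopontin and Gpnmb were present in both libraries, with 9 of 11 genes at 1 FPKM or more, 8 of them higher in lung (5 after rescaling to TPM), none over 20-fold and a median log2 ratio of 0.51. Itgb1, an integrin subunit widely expressed in leukocytes, was the highest in lung at 129 and 149 FPKM. Itgb5 had the highest ratio, with 5.93 and 22.4 FPKM, and Itga9 the lowest, with 1.31 FPKM in spleen and a listing at 0 in lung. Among 14 macrophage transcription factors, 12 were higher in lung (11 after rescaling to TPM), none over 20-fold, and the median was 1.22. Cebpb, a C/EBP factor, was the highest of these in lung at 47.0 and 272 FPKM, Tfec had the highest ratio at 0.553 and 5.30 FPKM, and Irf8 the lowest at 34.5 and 21.2 FPKM. Of 9 growth factors and receptors 7 were higher in lung (6 after rescaling to TPM), and their median was 3.21. Csf2ra, the GM-CSF receptor chain, was the highest in lung at 5.35 and 54.5 FPKM. Il34, a ligand of Csf1r, was listed at 0 in spleen and at 2.49 FPKM in lung, and Tgfb1 was at 7.88 and 4.05 FPKM.

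**Figure D4:**
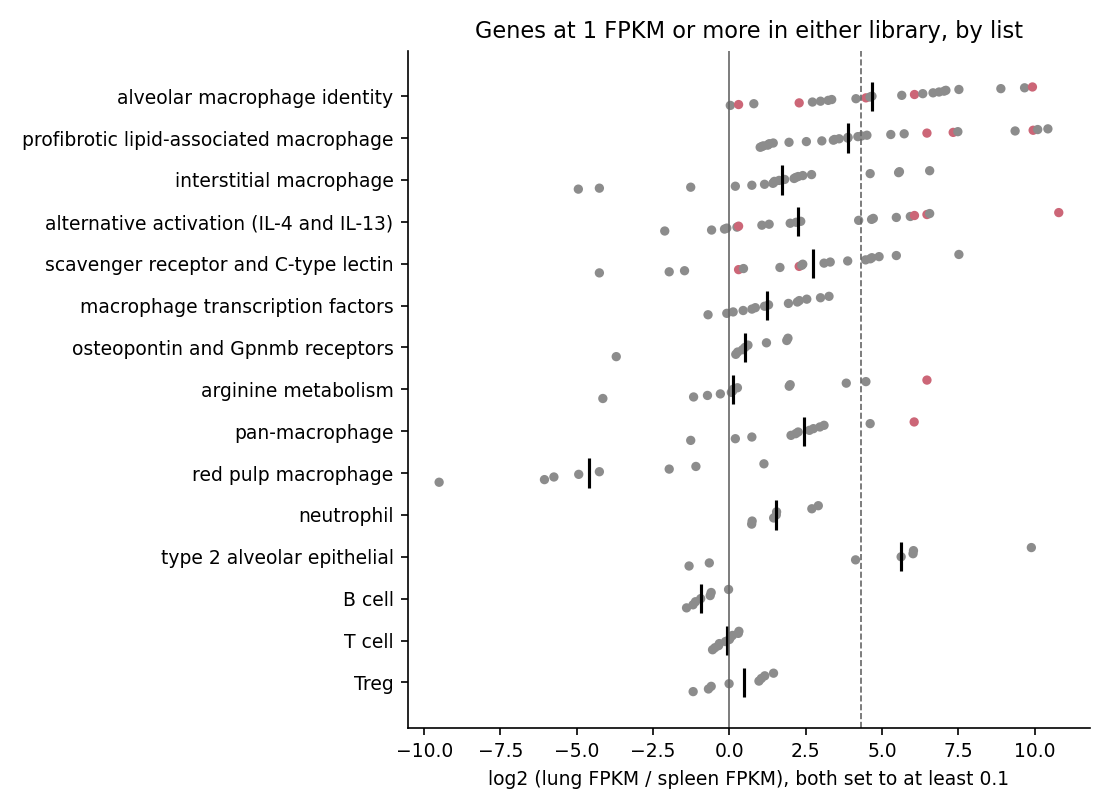
Log2 ratio of lung to spleen, with FPKM set to at least 0.1, for each gene at 1 FPKM or more in either library, by gene list (members in red, other genes in grey, black bars for the median), with lines at equality (solid) and at 20-fold (dashed). The alveolar identity and profibrotic lists lie to the right of equality on this scale, with medians of 4.67 and 3.87 with the members, while the T cell list lies around it at -0.07 and the red pulp list to its left at -4.60.

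Markers of other cell types were counted as well, and their part in the levels of the 10 genes was not tested. Red pulp macrophage genes, which mark the macrophages of the spleen that recycle iron, summed to 297 and 50.8 FPKM in spleen and lung. Of 8 such genes, 7 were lower in lung, and Vcam1 was at 72.9 FPKM in spleen and listed at 0 in lung. Spic, Vcam1, Cd163 and C6 entered only through their splenic values, and Siglec1 only through its lung value. Hmox1, the haem-degrading enzyme, was the highest in lung at 91.0 and 42.5 FPKM. Monocyte genes other than Chil3 summed to 121 and 372 FPKM, and 4 of 6 were higher in lung. Plac8 was the highest of these in lung, at 46.7 and 134 FPKM. All 7 listed neutrophil markers were higher in lung, with sums of 430 and 1222 FPKM and S100a8 at 276 and 804 FPKM, and none was over 20-fold higher.

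Cells of the airway and of connective tissue have markers with ratios as high as those of the members. Type 2 alveolar epithelial markers summed to 42.4 and 2068 FPKM in spleen and lung, of which Lyz1, also a relative of Lyz2, had 29.9 and 1953 FPKM. Of 7 type 2 genes at 1 FPKM or more, 5 were higher in lung, 4 of them over 20-fold, and 2 were lower. Sftpc, Sftpa1, Sftpb and Sftpd were under 1 FPKM in spleen and entered only through their lung values. The lower genes were Abca3, at 7.47 and 4.73 FPKM, and Etv5, at 4.94 and 1.97 FPKM. Club cell markers summed to 1.48 and 3061 FPKM, almost all from Scgb1a1 at 3021 FPKM in lung. Fibroblast markers summed to 0.422 and 163 FPKM, with Mgp at 116 FPKM in lung and listed at 0 in spleen. Of the 8, 6 and 8 genes in these lists, 4, 5 and 4 were at 0 in spleen and 0, 1 and 1 in lung.

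The remaining lists were read in the same way. All 7 B cell genes at 1 FPKM or more were lower in lung, with sums of 262 and 138 FPKM and Cd79b at 90.4 and 59.7 FPKM. Dendritic cell markers summed to 326 and 392 FPKM, mostly from Ccr7 at 311 and 361 FPKM, which T cells also express. Of 7 dendritic cell genes at 1 FPKM or more, 4 were higher in lung (3 after rescaling to TPM) and 3 lower. Batf3 was at 3.83 FPKM in spleen and listed at 0 in lung. NK cell markers summed to 28.7 and 35.1 FPKM, with Gzma at 13.1 and 19.5 FPKM. Of 5 NK cell genes at 1 FPKM or more, 3 were higher in lung (2 after rescaling to TPM) and 2 lower. Ncr1 was at 2.69 FPKM in spleen and listed at 0 in lung. Mast cell and basophil markers summed to 3.43 and 2.66 FPKM, with Kit the highest in lung at 1.30 FPKM. Endothelial markers summed to 55.5 and 48.9 FPKM, with Pecam1, which leukocytes share, at 54.8 and 31.7 FPKM. Counted gene by gene, 3 of the 4 endothelial genes at 1 FPKM or more were higher in lung and Pecam1 was lower. Over 20-fold higher were Egfl7 (0.101 and 8.04 FPKM) and Cldn5 (0.160 and 6.54 FPKM), while Vwf was at 0.425 and 2.03 FPKM. These 3 genes were under 1 FPKM in spleen and entered only through their lung values, which fixed their direction. The median log2 ratio was 3.81, and over all 8 listed endothelial genes it was 1.58. Osteoclast markers summed to 259 and 392 FPKM, with Acp5 at 160 and 202 FPKM, and 4 of 5 genes were higher in lung (3 after rescaling to TPM). Ctsk, at 0 and 110 FPKM, and Dcstamp, at 0 and 14.4 FPKM, were over 20-fold higher with the floor, and the median log2 ratio was 1.53. Both genes entered only through their lung values, and over all 8 listed osteoclast genes the median was 0.20. The T cell list summed to 4566 and 4423 FPKM, with Cd3g at 902 and 1103 FPKM, and the Treg list to 1909 and 3015 FPKM, with Tnfrsf4 at 486 and 1004 FPKM.

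Eosinophil markers were read beside Ear2, whose family is named after these cells. Epx, the eosinophil peroxidase, and Ear6 were at 0 in both libraries. Prg2, the major basic protein, was at 1.23 FPKM in spleen and at 0 in lung, and Prg3 was at 0.781 and 0. The 8 markers summed to 13.6 and 17.5 FPKM in spleen and lung, and in lung Siglecf at 8.06 FPKM and Alox15 at 8.82 FPKM, both also expressed by macrophages, made up nearly the whole sum. Ccr3, the eotaxin receptor, was at 10.6 and 0.554 FPKM and Il5ra, the IL-5 receptor, at 0.634 and 0.0762 FPKM, so that both were low but above 0 in lung. The part of eosinophils in the level of Ear2 was not tested.

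Lyz2, Chil3, Retnla and Ear2 belong to families of close relatives, and the relatives were read one by one. In the lysozyme family Lyz1 was 65.2-fold higher in lung, close to Lyz2, and was 7.96% of Lyz2 in spleen and 7.83% in lung, while Lyzl1, Lyzl4 and Lyzl6 were at 0 in both. In the chitinase-like family Chil1 was at 0.521 and 4.25 FPKM, Chia1 at 0.293 and 3.94, Chil4 at 0 and 0.261, Chil6 at 0.0661 and 0, and Chit1 at 0 in both. As deposited, Chil3 held 17.4 of the 18.3 FPKM of the family in spleen and 1161 of 1170 FPKM in lung, a split that is uncertain between Chil3 and Chil4, which share read-length stretches.

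The resistin-like family divided differently. Retnlg, a gene of neutrophils, was at 19.5 FPKM in spleen and 32.7 FPKM in lung, Retn was at 0.516 and 0, and Retnlb was at 0 in both. Retnla was therefore below Retnlg in spleen and above it in lung, where Retnlg was 3.74% of Retnla. Among the ribonucleases Ear1 was at 0 and 13.6 FPKM, Ear3 at 0.857 and 26.4, Rnase2a at 0 and 5.64, and Ear10 at 0 and 1.62. The other 5 listed relatives (Ear4, Ear6, Ear7, Ear14 and Rnase2b) were at 0 in both.

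Short reads can be credited to the wrong relative, so the transcripts of the 10 genes were compared with all other GENCODE transcripts in windows of 75 bases, the read length. For Ear2 23.4% of windows were identical to a stretch of another gene, and 84.2% matched one with 2 mismatches or fewer. The other genes were Ear1, Ear10, Ear14, Rnase2a, Ear-ps2 and Ear-ps9. Ear3 was not among them and had no transcript length here, so it may not have been compared. For Chil3 the shares were 14.2% and 57.3%, and for Lyz2 5.96% and 42.8%. Plet1 shared 7.37% of its windows with Plet1os, an antisense gene, and reads of overlapping antisense genes cannot be told apart without strand. Spp1 shared 0.224%, and Retnla, Arg1, Mrc1, Gpnmb and Marco shared none.

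**Figure D5:**
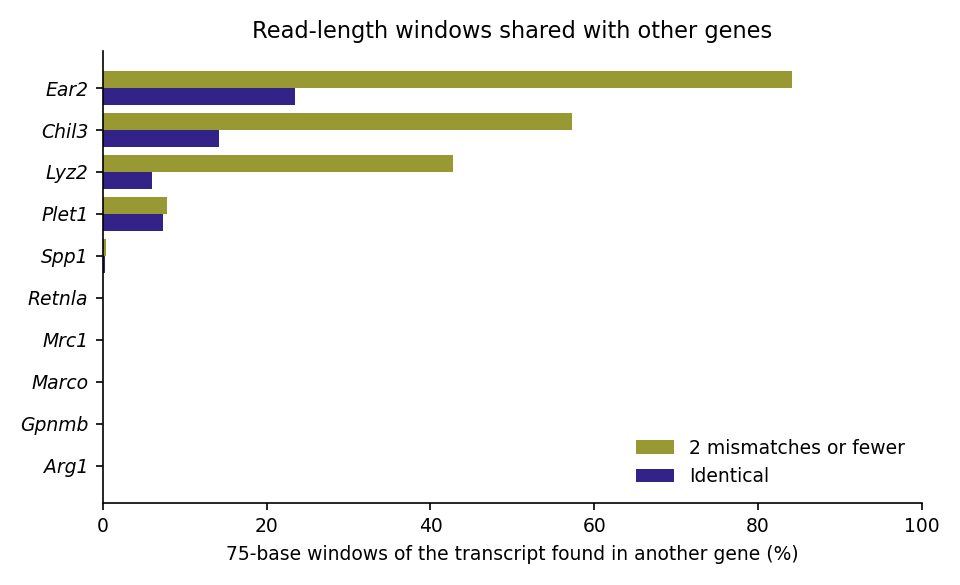
Percentage of 75-base windows of each member transcript that were identical to a stretch of another gene (blue) or matched one with 2 mismatches or fewer (olive). Ear2, Chil3 and Lyz2 have the longest bars, at 84.2%, 57.3% and 42.8% with mismatches allowed, and 5 genes share no window.

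The coding stretches below are shown because they are where each gene and 1 close relative differ most over the length of a read. Only ungapped stretches lying within 1 exon of both genes were considered. They were compared within each pair only, so an Ear2 read from this stretch may still match other Ear genes. Lyz2 and Lyz1 were 95% identical over their coding sequence, Chil3 and Chil4 94.4%, and Ear2 and Ear1 95.1%. Sequences are from GRCm38, 5′ to 3′ on the coding strand, and capitals mark the bases that differ within each pair. The Lyz2 stretch lies in exon 1 of 4 at chr10:117282111-117282185 and that of Lyz1 in exon 1 at chr10:117292707-117292781, both on the minus strand, with 12 differences. The Chil3 stretch lies in exon 6 of 11 at chr3:106155714-106155788 and that of Chil4 in exon 6 at chr3:106206041-106206115, both on the minus strand, with 10 differences. The Ear2 stretch lies in exon 2 of 2 at chr14:44102982-44103056 on the plus strand and that of Ear1 in exon 2 at chr14:43819240-43819314 on the minus strand, with 7 differences.
Lyz2: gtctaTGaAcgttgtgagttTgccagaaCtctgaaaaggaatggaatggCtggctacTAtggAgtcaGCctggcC
Lyz1: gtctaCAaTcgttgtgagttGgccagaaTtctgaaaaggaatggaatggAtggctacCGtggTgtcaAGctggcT
Chil3: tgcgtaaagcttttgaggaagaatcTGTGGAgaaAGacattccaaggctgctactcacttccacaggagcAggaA
Chil4: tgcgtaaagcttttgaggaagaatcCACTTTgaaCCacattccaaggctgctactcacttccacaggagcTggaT
Ear2: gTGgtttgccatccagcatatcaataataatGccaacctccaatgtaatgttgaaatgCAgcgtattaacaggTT
Ear1: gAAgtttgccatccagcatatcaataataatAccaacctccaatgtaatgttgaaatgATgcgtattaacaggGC
The handling of reads with several matches was not stated. The near-equal share of Lyz1 in Lyz2 in both libraries is therefore uncertain as a measure of separate genes. So are the levels of Chil3 and Chil4, and those of Ear2, Ear1, Ear10 and Rnase2a. The level of Ear3 is uncertain too, but Ear3 was not among the genes found to share windows with Ear2. Retnla and Retnlg were 71.3% identical and shared no window.

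The protein-coding genes on either side of each member were read for comparison. Of 20 neighbours 18 are listed, and 8 of them were at 0 in both libraries (Mepe, Retnlb, Tmem236, Ang6, Svs1, C1ql2, En1 and 9530003J23Rik). Over 20-fold higher in lung were 2, Lyz1 at 5475 bases from Lyz2 and Pkd2 at 18399 bases from Spp1. Pkd2, a cation channel, was listed at 0 in spleen and at 2.17 FPKM in lung. Med23, a Mediator subunit 1539 bases from Arg1, was at 11.1 FPKM in spleen and 6.50 FPKM in lung, the opposite direction to Arg1. Malsu1, a mitochondrial ribosome factor 2865 bases from Gpnmb, was at 31.3 and 57.6 FPKM. Pts, a biopterin enzyme beside Plet1, was at 76.3 and 70.2 FPKM, Akap7 beside Arg1 at 1.92 and 2.07, and Slc39a12 beside Mrc1 at 0 and 0.138. Chia1, Chil4 and Retnlg are the neighbours given above with their families.

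For each member, the protein-coding genes with the most similar pair of values were found by the Euclidean distance of log2 FPKM over the 2 libraries, which is a likeness of 2 numbers only. Chil3 was nearest to Ccl6, a chemokine of myeloid cells, at 17.4 and 1545 FPKM (distance 0.412), and then to Wfdc17, at 27.4 and 1352 FPKM. Plet1 was nearest to Sftpc, the surfactant protein of type 2 cells (distance 0.036), and to Ctsk, a cysteine protease, which were listed at 0 in spleen and at 94.8 and 110 FPKM in lung. The splenic values of all these genes were raised to the floor, so their distances compare the lung values only. Spp1 was nearest to Scgb1a1 (distance 1.74) and Ccl6 (2.47), and Retnla to Scgb1a1 (2.39) and Mmp12 (3.05), a macrophage elastase at 0.199 and 130 FPKM. Few genes thus lay near Spp1 and Retnla.

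Arg1 was nearest to Olfm1 (0.425 and 21.6 FPKM) and Fabp4, a fatty acid binding protein of alveolar macrophages (0.446 and 58.3 FPKM). Gpnmb was nearest to the chemokine Ccl9 (1.27 and 77.3 FPKM) and to Cbr2 (0.593 and 58.9 FPKM). Ear2 was nearest to S100a1 (7.59 and 181 FPKM) and Ctla2b (7.70 and 172 FPKM). Lyz2, the highest gene in lung, had no near gene, and the closest were Fth1, the ferritin heavy chain, at 1582 and 8215 FPKM (distance 2.62) and Ctsd (2.64).

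Mrc1 and Marco, the members with the smallest ratios, had near genes. Mrc1 was nearest to Abi3 (7.56 and 9.29 FPKM, distance 0.025) and Reep3 (7.51 and 9.38 FPKM, distance 0.026). Marco was nearest to Cyp2s1 (2.48 and 12.6 FPKM, distance 0.046) and Gins1 (2.63 and 12.9 FPKM, distance 0.065).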

How the data were processed

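GFP+CD4+ cells of spleen and lung gave 1 library per tissue, from 3 pooled mice each, grouped by the sample labels. Reads of 75 bases, single-end, were mapped by the authors with TopHat2 2.1.1 (Bowtie2 2.2.8, SAMtools 0.1.18) on mm10, and the deposited values are FPKM from Cuffdiff 2.2.1. The gene annotation, the treatment of reads with several matches and any scaling between libraries are not given in the sources used here. The FPKM summed to 599633 in spleen and 808853 in lung, with 9542 and 10638 of 24346 symbols at 0. These sums, on which TPM rests, include microRNAs with high values. Mir5136 was at 0 and 5554 FPKM in spleen and lung, and Mir762 at 6305 and 5554 FPKM. TPM shifted ratios by -0.43 (log2), while scaling by the median ratio or by upper quartiles shifted them by -0.016 and -0.18.

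Ratios of lung to spleen were taken after setting FPKM under 0.1 to 0.1. The 10 genes and all gene lists were chosen with earlier results of these data known, so that no count over them is independent evidence. Genes were named by a rule: the 10 genes, their family relatives, chromosomal neighbours and 2 nearest genes by values, Actb, Foxp3, Cd4 and Cd3e, for each gene list the non-member with the highest ratio, the lowest ratio and the highest lung FPKM, and for each cell type the marker highest in lung. Further markers named (Cd14, Aif1, Vcam1, Epx, Ear6, Prg2, Prg3, Siglecf, Ccr3, Il5ra, Egfl7, Cldn5, Ctsk and Dcstamp) were chosen after their values were seen. The same holds for Batf3, Ncr1, Abca3 and Etv5, for the microRNAs, and for genes named in connection with the level of 1 FPKM.

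Reads were estimated with effective lengths of GENCODE M21 transcripts tied to RefSeq (found for 97.1% of symbols), fragments with a mean of 200 and an SD of 80 bases, and a shortest fragment of 71. Of genes with 1 to 10 reads, 72.6% in spleen and 74.7% in lung came within 0.1 of a whole number. Intervals are exact binomial at 95% and cover counting error only, since PCR copies are counted separately. The read estimates and the 20-fold counts, but not the intervals, were run on simulated counts drawn from the same length model. That simulation held no PCR copies and no reads with several matches. The alternatives were a floor of 0.01 or 1 FPKM, an added pseudocount of 0.1 or 1 FPKM, TPM, scaling by the median ratio or by upper quartiles, filters on low values, at least 3 reads per library, and folds of 10 and 50. Promoters and coding stretches come from RefSeq and GRCm38, read with Biopython 1.88. Scripts ran in Python 3.11.15 (scipy 1.17.1, pandas 2.3.3, numpy 2.4.6, matplotlib 3.10.9).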

Additional observations from a re-analysis of the deposited data

How the results depend on the processing

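The ratios of the members kept their direction under each alternative, except that Mrc1 came to a log2 ratio of -0.13 when rescaled to TPM, which shifts ratios above the floor by -0.43 (log2). The median log2 ratio of the members was 5.83 under TPM and 5.26 among the 6 members at 1 FPKM or more in both libraries, and 4 of these 6 were over 20-fold. The count over 20-fold stayed at 7 or 8 of 10 under the other settings, and Ear2 passed in 8 of its 10. The count over all symbols, 395, was 867 with a floor of 0.01 FPKM, 102 with a floor of 1 FPKM, 78 with a pseudocount of 1 FPKM, 33 at 1 FPKM or more in both libraries, 196 above 0 in both, 742 at 10-fold and 140 at 50-fold. The splenic values of Plet1, Retnla and Arg1 rest on 0.904, 2.01 and 5.0 estimated reads, so depth limits their ratios most. No paired analysis was possible because each tissue has 1 library. Variation between mice is unknown.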
